A study of Arabidopsis thaliana with 12 samples.

Results

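The comparison described here sets germinating seeds of the Arabidopsis thaliana line ago4-3 against those of the line ago4-2 on salt. Its members were chosen by genotype and medium alone: 2 libraries of ago4-3 with NaCl and 2 of ago4-2 with NaCl, 4 of the 12 libraries of the series. Seeds of both mutants and of the wild-type ecotype Col-0 were sown on Murashige and Skoog (MS) medium at full strength with 100 mM NaCl added, or on the same medium without it as control. All seeds were kept at 21 °C with 16 h of light and 8 h of dark, and polyadenylated RNA was taken with hot phenol. The labels give no lesion, background or generation for either allele, no harvest time, and no age of the seeds. The design text speaks of biological replicates, but nothing says that the 2 libraries of a group came from separate sowings, so each p-value measures only the spread between these libraries. RNA came from whole seeds, so fewer cells of a type and less RNA per cell cannot be told apart.

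AGO4 is an ARGONAUTE protein that binds short RNAs and takes part in RNA-directed DNA methylation, in which RNA polymerases IV and V, the dicer DCL3 and the methyltransferase DRM2 place cytosine methylation on matching DNA, mostly transposons and repeats. A dry seed of Arabidopsis holds messenger RNA for storage proteins, oil bodies and protective late embryogenesis abundant (LEA) proteins made while it matured. During germination and greening this RNA is replaced by that of photosynthesis, chlorophyll synthesis and cell growth, and abscisic acid and salt hold the change back. These statements are background. They explain why the gene groups below are given in the order of DNA methylation, seed reserves, greening and hormones.

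Each library held 18168653 to 47517007 counts. The ago4-3 NaCl libraries held 20549167 and 29581350, and the ago4-2 NaCl libraries 26281391 and 33496408. Levels are CPM, a library's counts brought to a common total and scaled by the TMM method, which corrects for RNA composition, and differences are log2 fold changes ± SE, ago4-3 minus ago4-2, from an edgeR quasi-likelihood fit. A gene was called where its p-value, with Benjamini-Hochberg correction over the 17751 genes tested, was under 0.05. Several library measures differed between the groups. Organelle genes took 0.1019% and 0.5846% of counts in the ago4-3 NaCl libraries, against 1.3547% and 1.0581% in the ago4-2 NaCl libraries. The 10 most abundant genes took 6.61% and 8.21% of counts in ago4-3, against 13.87% and 10.8% in ago4-2, and the TMM factors were 1.0013 and 0.9854 in ago4-3, against 0.8791 and 0.8948 in ago4-2. Among the control libraries, ago4-2 replicate 1 stood apart, with 2.0402% organelle counts and 15.2% in its 10 most abundant genes. The counts of calls in control and for the gap are also given without it. So are the photosynthesis counts and the gap count for chlorophyll synthesis. Control values of the other lists and of single genes include this library and were not given without it. As a seed marker, EPR1, an extensin-like gene of the micropylar endosperm, was detected in all 12 libraries. The other 6 of the 7 endosperm and seed coat markers were not counted in every library and were not analysed here.

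AGO4 (AT2G27040; TAIR10.1 chromosome 2, 11536502 to 11542391, minus strand) was nearly absent from ago4-3 and present in ago4-2. Its level was 0.729 and 0.549 CPM in the ago4-3 NaCl libraries, against 38.9 and 35.4 CPM in the ago4-2 NaCl libraries. Both ago4-3 libraries lay far below both ago4-2 libraries, with a log2 fold change of −5.88 ± 0.20 (adjusted p = 5.43e-11). The authors' deposited table gave −5.87 for the same comparison. In control medium the difference was −5.14, and the gap between the mutants did not differ detectably between the media (−0.74, adjusted p = 0.359). Col-0 on NaCl held 46.9 and 38.9 CPM. Transcript level alone does not show whether the protein made in ago4-2 works, and the lesion of that line is not given in the labels.

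On salt the mutants differed in 3709 of 17751 genes, 20.9% of those tested. Of these, 1756 genes (9.89%) were higher and 1953 (11.0%) lower in ago4-3, with a median log2 fold change of 0.00 over all genes. At that threshold the authors' deposited table lists 2342 genes as higher and 2690 as lower in ago4-3. Most called differences were small: 781 called genes (4.4% of those tested) differed at least 2-fold, of which 364 were higher and 417 lower in ago4-3. The split between directions depended on scaling. With library totals in place of TMM factors, 2656 genes were higher and 862 lower, since the median of all genes then moved to 0.16, and the changes below are relative to that of all genes. The number of calls also depended on each library: it was 2199 without ago4-3 NaCl replicate 1, 2286 without ago4-3 NaCl replicate 2, 1923 without ago4-2 NaCl replicate 1 and 1867 without ago4-2 NaCl replicate 2.

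In control medium, 1597 genes (9.0%) were called between the same mutants, 673 (3.79%) higher and 924 (5.21%) lower in ago4-3. Without ago4-3 control replicate 2 the count was 879, and without ago4-2 control replicate 1, the library that stood apart, it was 1238. The NaCl and control comparisons share no library. Of the genes called on salt, 1084 were called in the same direction in control medium, 437 higher and 647 lower in ago4-3, which was 29.2% of the salt calls and 67.9% of the control calls. A further 21 genes were called in opposite directions. A gene missing from the control calls is not thereby shown to differ between the media, which was tested separately as the gap in NaCl minus the gap in control. That test called 145 genes (0.817%), of which 115 (0.648%) had a positive value and 30 (0.169%) a negative one. That split depended on scaling and tool: it was 113 positive and 4 negative with library totals, where the median of all genes was 0.13, and 199 positive and 138 negative with DESeq2. The count of calls depended strongly on single libraries. It was 67 without ago4-3 NaCl replicate 1, 85 without ago4-3 NaCl replicate 2, 44 without ago4-2 NaCl replicate 1 and 41 without ago4-2 NaCl replicate 2. With a control library left out, it was 66 (ago4-3 replicate 1), 82 (ago4-3 replicate 2) and 420 (ago4-2 replicate 1). Of those 420, 155 were positive and 265 negative.

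**Figure D1:**
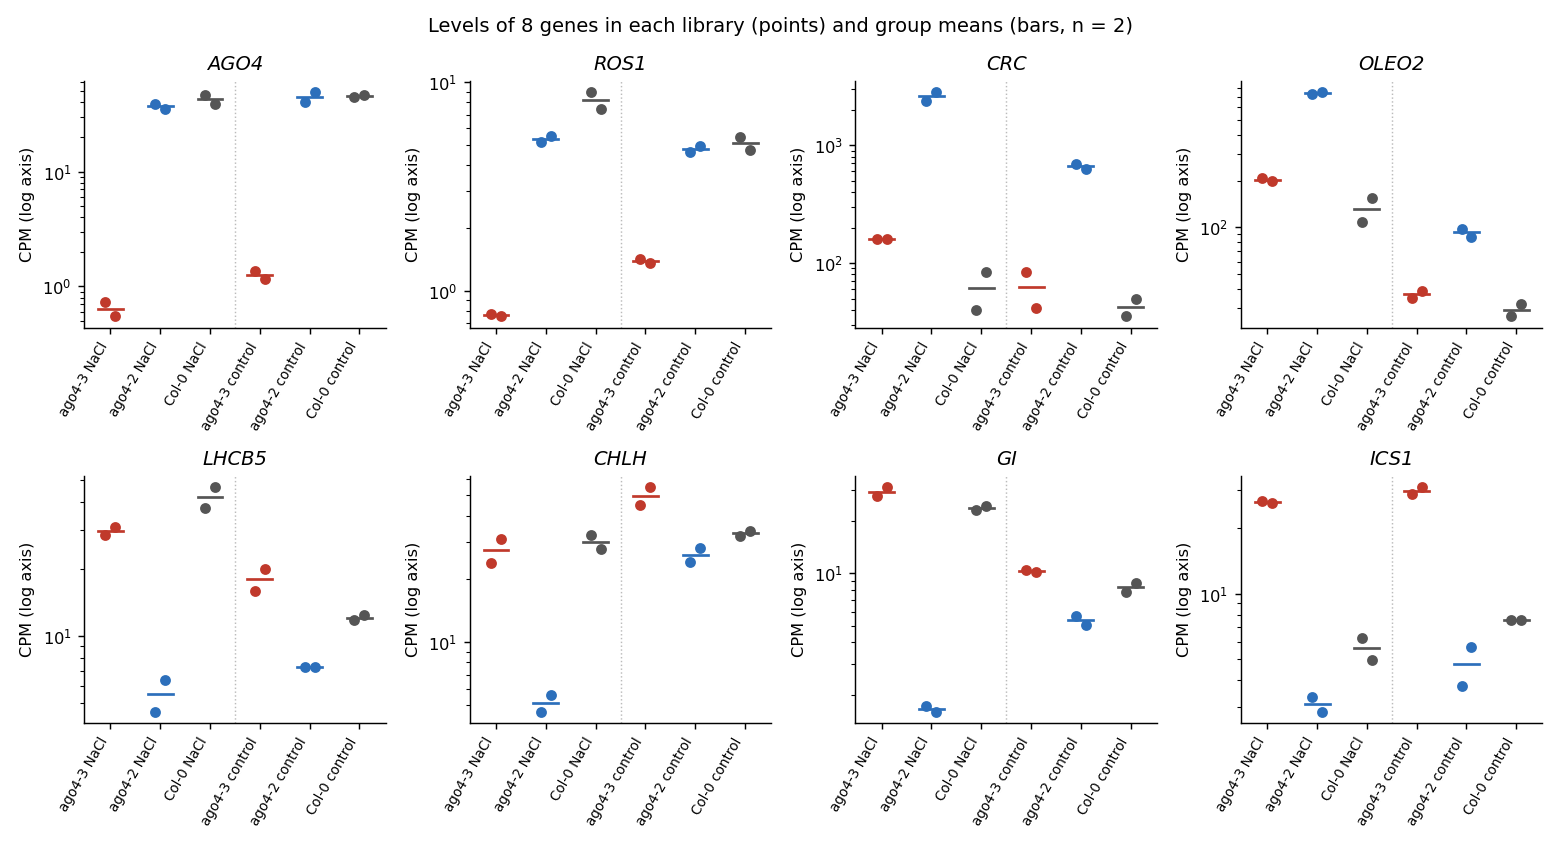
CPM on a log axis for 8 genes in each of the 12 libraries (points) with the group mean of 2 libraries (bars), for NaCl groups left of the dotted line and control groups right of it. AGO4 and ROS1 were low in ago4-3 in both media, CRC and OLEO2 were higher in ago4-2 than in ago4-3 in both media, and LHCB5, CHLH and GI were lowest in ago4-2 on NaCl.

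Some genes were expressed in one mutant line and nearly silent in the other. With near silence set at a mean under 0.5 CPM and expression at a mean of at least 5 CPM, 34 genes (0.192% of those tested) met the rule on salt. Of these, 21 were expressed in ago4-3 and near silent in ago4-2, and 13 the reverse. All 34 were called on salt and, in the same direction, in control medium, where the libraries are separate ones. The share of all genes called in control was 9.0%. The test of the gap between the media called 0 of them, against 0.817% of all genes. Only genes with a count listed for all 12 libraries were tested, so a gene expressed only on salt could have been left out. That requirement may have fixed part of the agreement in control. With expression set at 2 CPM the number of genes near silent in 1 line was 72, and at 10 CPM it was 19. Since the rule used their levels on salt, these values are a description.

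Among the genes expressed in ago4-3, SADHU1-1 (AT2G10410; chromosome 2, 4005995 to 4007044), a member of the Sadhu retroelements, some of which are silenced by DNA methylation, had 201 and 160 CPM in ago4-3, against 0.346 and 0 CPM in ago4-2. Col-0 on NaCl held 135 and 164 CPM of it, a difference from Col-0 of 0.27 for ago4-3 (adjusted p = 0.555) and of −9.91 for ago4-2 (adjusted p = 6.88e-11). The gene pair AT2G04378 and AT2G04380 lies on opposite strands of the same stretch of chromosome 2 (1525029 to 1526875 and 1525642 to 1526767), and reads cannot be told apart between the members, since the labels do not say whether counting used strand. AT2G04378 had 68.0 and 64.9 CPM in ago4-3, against 0.0866 and 0 CPM in ago4-2, a ratio of 1760 (95% counting interval 486 to 14500). HSD2 (AT3G47350; chromosome 3, 17446818 to 17450742), annotated as a hydroxysteroid dehydrogenase, had 68.9 and 67.9 CPM in ago4-3, against 0.26 and 0.50 CPM in ago4-2, and Col-0 held 69.9 and 71.8 CPM. AT3G06433 lay just outside the rule on near silence, with 138 and 125 CPM in ago4-3, against 1.17 and 1.23 CPM in ago4-2 (log2 fold change 6.76 ± 0.17, adjusted p = 2.28e-12). Not all genes of this kind were expressed in Col-0. The MADS-box gene AT1G59920 (chromosome 1, 22059424 to 22059842) had 7.87 and 8.06 CPM in ago4-3, and 0 counts in both ago4-2 and both Col-0 libraries on salt, so ago4-3 was at least 69.3-fold higher than ago4-2 at a floor of 3 counts per library. Its neighbour AT1G59930 (22060924 to 22061516), also annotated as MADS-box, had 12.7 and 10.5 CPM in ago4-3, against 0 and 0.0667 CPM in ago4-2. Over the 21 genes, Col-0 on NaCl averaged at least 5 CPM for 13 and under 0.5 CPM for 8.

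The genes near silent in ago4-3 were mostly low in Col-0 too: for 11 of the 13 the Col-0 mean on NaCl was under 0.5 CPM and for 0 it reached 5 CPM. AT4G19240 (chromosome 4, 10527800 to 10529092) had 0 counts in both ago4-3 libraries, against 125 and 120 CPM in ago4-2, at least 987-fold lower, and 0 counts in Col-0. AT4G19239, its neighbour at 10527516 to 10527776 on the same strand, showed the same, with 0 counts in ago4-3, against 37.8 and 37.9 CPM in ago4-2. RPP4 (AT4G16860; chromosome 4, 9488466 to 9495837), a receptor gene for resistance to downy mildew, had 0.194 and 0.274 CPM in ago4-3, against 11.4 and 12.1 CPM in ago4-2, and fell by 5.59 ± 0.38 on the log2 scale (adjusted p = 1.89e-07). CORI3 (AT4G23600), an enzyme of amino acid cleavage induced by coronatine and jasmonate, had 0.0972 and 0.0686 CPM in ago4-3, against 7.53 and 6.34 CPM in ago4-2. AT4G29760 and AT4G29770, adjacent genes on chromosome 4 annotated as targets of trans-acting short RNAs, were also in this group. AT4G29760 had 0.0972 and 0 CPM in ago4-3, against 8.05 and 8.44 CPM in ago4-2, which was 206-fold higher (95% counting interval 56.6 to 1700). Both members carry the same product annotation, and reads may be shared between them.

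The genes near silent in 1 line were spread unevenly over the genome. Of the 34, 6 lay on chromosome 1 (4621 genes tested), 8 on chromosome 2 (2709) and 7 on chromosome 3 (3477). On chromosome 4 (2662 genes tested) lay 13, and on chromosome 5 (4091) 0. Some of the 34 were adjacent or overlapping pairs, with each member counted. The 2 directions differed in place: of those expressed in ago4-3, 2 lay on chromosome 4, and of those expressed in ago4-2, 11 did. The share of all genes tested that was called on salt was 19.1% on chromosome 1, 22.4% on chromosome 2, 21.6% on chromosome 3, 26.6% on chromosome 4 and 18.3% on chromosome 5. Genes called with at least a 4-fold difference, 1.32% of all genes tested, were 2.63% of those on chromosome 4, 1.77% on chromosome 2, 1.21% on chromosome 3, 0.931% on chromosome 1 and 0.587% on chromosome 5. AGO4 itself lies on chromosome 2. Neighbouring genes are not independent, and no test was made of these shares.

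**Figure D2:**
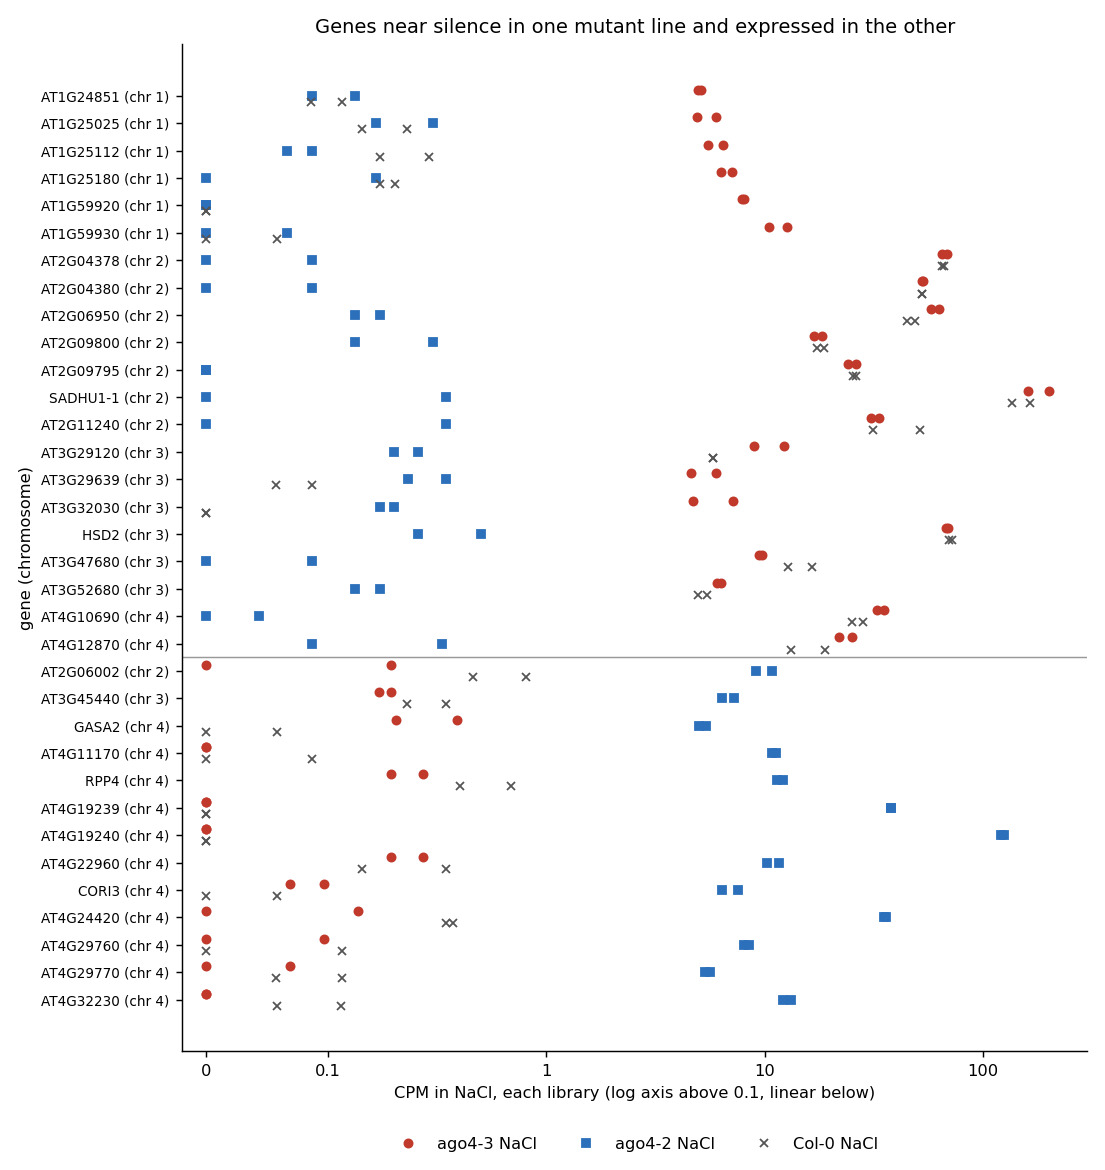
CPM on NaCl in each library (log axis above 0.1, linear below) for the 34 genes near silent in 1 mutant, with their chromosome, for ago4-3, ago4-2 and Col-0. In the upper block of 21 genes the ago4-3 points lie right and the ago4-2 points left, with Col-0 on the ago4-3 side for 13. In the lower block of 13 genes, 11 of them on chromosome 4, ago4-2 lies right and ago4-3 left. For that block the Col-0 mean is under 0.5 CPM for 11 genes and at least 5 CPM for 0.

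Of 22 measured genes of RNA-directed DNA methylation, 1 was higher and 5, AGO4 among them, were lower in ago4-3. These were 27.3% of the list, against 20.9% of all genes (9.89% higher and 11.0% lower). That count depended on the libraries used: without ago4-2 NaCl replicate 1 or without ago4-3 NaCl replicate 1 it was 1 higher and 1 lower, without ago4-3 NaCl replicate 2 it was 1 and 3, without ago4-2 NaCl replicate 2 it was 1 and 2, and with scaling by library totals 1 and 1. SUVH9, which recruits RNA polymerase V to methylated DNA, rose. It had 22.8 and 24.6 CPM in ago4-3, against 12.9 and 12.8 CPM in ago4-2 (0.89 ± 0.12, adjusted p = 7.74e-05), and Col-0 held 22.4 and 23.8 CPM. DRM2, the methyltransferase of the pathway, had 19.4 and 17.3 CPM in ago4-3, against 22.3 and 26.0 CPM in ago4-2, a difference of −0.40 with an adjusted p of 0.0486. That call was lost with each library left out in turn (adjusted p of 0.0813 without ago4-3 NaCl replicate 1, 0.263 without ago4-3 NaCl replicate 2, 0.0728 without ago4-2 NaCl replicate 1 and 0.317 without ago4-2 NaCl replicate 2). Transcripts of the largest subunits of polymerases IV and V, NRPD1 (0.06) and NRPE1 (−0.24), and of AGO6 (−0.11) and AGO9 (0.01), the close relatives of AGO4, did not pass the test. Of the 4 other ARGONAUTE genes measured, AGO1, AGO2, AGO7 and AGO10, edgeR called 0 on salt, with differences of −0.12 to 0.06.

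ROS1 (AT2G36490; chromosome 2, 15307907 to 15314807), a DNA glycosylase that removes cytosine methylation and whose own transcript depends on methylation of its promoter, fell in ago4-3. Its level was 0.778 and 0.755 CPM in ago4-3, against 5.15 and 5.54 CPM in ago4-2, and Col-0 held 8.95 and 7.46 CPM. Both ago4-3 libraries lay below both ago4-2 libraries, with a log2 fold change of −2.80 ± 0.24 (adjusted p = 1.60e-06). In control medium ROS1 differed by −1.79 (adjusted p = 0.000123). Methylation upkeep and removal had 10 measured genes, 2 called higher and 1, ROS1, lower, beside 9.89% and 11.0% of all genes. Among the other 9, CMT3 and KYP, which keep non-CG methylation in place, were called higher (0.50 and 0.64). Both calls were lost without ago4-2 NaCl replicate 1 (adjusted p = 0.0648 for CMT3 and 0.0559 for KYP), without ago4-2 NaCl replicate 2 (0.0801 and 0.0971) and without ago4-3 NaCl replicate 2 (0.0903 and 0.0752). MET1, the CG methyltransferase (0.36, adjusted p = 0.0548), and the chromatin remodeller DDM1 (−0.20, adjusted p = 0.291) did not pass.

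Seed reserve genes were lower in ago4-3 in both media. Of 13 seed storage protein genes, 12 were called lower and 0 higher on salt, against 11.0% of all genes called lower, and the median log2 fold change was −2.82. CRC, the cruciferin 3 precursor, had 159 and 159 CPM in ago4-3, against 2370 and 2810 CPM in ago4-2 (−4.03 ± 0.34, adjusted p = 1.41e-06). CRA1, another cruciferin, had 1280 and 1190 CPM in ago4-3, against 5790 and 6350 CPM in ago4-2 (−2.30 ± 0.21). SESA2, a 2S albumin, had 5.25 and 4.80 CPM in ago4-3, against 49.0 and 54.4 CPM in ago4-2 (−3.37 ± 0.18, adjusted p = 6.49e-09). For all 13 genes both ago4-3 libraries lay below both ago4-2 libraries, as they did for 33.5% of all genes tested. Summed over the list, storage transcripts made up 1884 and 1776 CPM in ago4-3, against 11691 and 13012 CPM in ago4-2, and 755 and 1113 CPM in Col-0. In control medium 11 of the 13 were lower, with a median of −2.80, against 5.21% of all genes called lower there. The sums in control were 359 and 181 CPM in ago4-3, against 2302 and 2108 CPM in ago4-2. The gap between the mutants differed between the media for 1 of the 13, AT4G36700, a cupin (−1.2, adjusted p = 0.00889), a call that was lost without ago4-2 NaCl replicate 2 (adjusted p = 0.0609) and without ago4-3 NaCl replicate 2 (0.0518).

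Oil body genes followed the same direction, with 7 of 8 lower, 0 higher and a median of −2.02, against 11.0% of all genes called lower. OLEO2, a structural protein of the oil body surface, had 208 and 201 CPM in ago4-3, against 737 and 753 CPM in ago4-2 (−1.87 ± 0.15, adjusted p = 7.28e-07). CLO1, a caleosin of oil bodies, had 6.66 and 7.41 CPM in ago4-3, against 39.8 and 42.7 CPM in ago4-2 (−2.55 ± 0.18). Of 18 genes that break oil down during germination, 1 was called higher and 2 lower in ago4-3, with a median of −0.02. These were 16.7% of the list, near the 20.9% of all genes called. With scaling by library totals 3 were higher and 0 lower, and 1 gene was called without ago4-3 NaCl replicate 2, without ago4-2 NaCl replicate 1 or without ago4-2 NaCl replicate 2. The beta-vacuolar processing enzyme BETA-VPE, which cleaves storage protein precursors, fell by 0.73 ± 0.09 on the log2 scale (148 and 152 CPM in ago4-3, against 244 and 256 CPM in ago4-2).

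LEA protein genes were more mixed. Of 29 measured, 22 were lower and 2 higher in ago4-3, beside 11.0% and 9.89% of all genes. The median was −0.92, with single genes at −3.49 to 0.78. Without ago4-3 NaCl replicate 2 the counts were 15 lower and 0 higher. M17 had 27.5 and 27.0 CPM in ago4-3, against 253 and 256 CPM in ago4-2 (−3.22 ± 0.25). EM6, which takes part in water loss during maturation, had 152 and 120 CPM in ago4-3, against 553 and 659 CPM in ago4-2 (−2.16 ± 0.19, adjusted p = 2.13e-06). In control medium 22 LEA genes were lower and 1 higher, beside 5.21% and 3.79% of all genes there. Single genes also fell in other lists, whose counts stand beside the same 9.89% of all genes higher and 11.0% lower. ALPHA-TIP, a water channel of storage vacuoles from the aquaporin list (5 of 18 higher, 3 lower), had 19.2 and 21.8 CPM in ago4-3, against 157 and 154 CPM in ago4-2 (−2.92 ± 0.21), and BETA-TIP of the same list fell by 3.27 ± 0.23. PER1, a peroxiredoxin of dormant seeds from the list of peroxide and superoxide removal (2 of 11 higher, 1 lower), had 55.9 and 50.4 CPM in ago4-3, against 302 and 305 CPM in ago4-2 (−2.51 ± 0.20). EPR1, the endosperm marker, had 7.39 and 8.61 CPM in ago4-3, against 64.3 and 54.8 CPM in ago4-2, and 32.8 and 47.9 CPM in Col-0 (−2.89 ± 0.33, adjusted p = 2.44e-05). It was the 1 endosperm or seed coat marker of 7 that was measured, and its part in the results above was not tested.

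Since 12 of 13 storage protein genes and 7 of 8 oil body genes were lower, the DNA just upstream is shown for 2 storage protein genes and, for contrast, for 1 light-harvesting gene that rose. The sequences are the 250 bases before the annotated start, 5′ to 3′, from RefSeq TAIR10.1, and lie outside annotated exons. Capitals mark the RY element CATGCA, a site of seed maturation regulators such as ABI3, and the core ACGTG of the abscisic acid response element (ABRE), on either strand. The SESA2 window is chr4:13609091-13609340 (plus strand), that of CRC chr4:14087306-14087555 (plus strand) and that of LHCB1.3 chr1:10477635-10477884 (plus strand).
SESA2: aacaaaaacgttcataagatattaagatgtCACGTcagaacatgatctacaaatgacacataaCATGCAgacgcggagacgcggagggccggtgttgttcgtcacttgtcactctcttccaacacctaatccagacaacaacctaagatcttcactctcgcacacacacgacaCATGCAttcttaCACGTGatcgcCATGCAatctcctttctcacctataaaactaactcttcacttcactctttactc
CRC: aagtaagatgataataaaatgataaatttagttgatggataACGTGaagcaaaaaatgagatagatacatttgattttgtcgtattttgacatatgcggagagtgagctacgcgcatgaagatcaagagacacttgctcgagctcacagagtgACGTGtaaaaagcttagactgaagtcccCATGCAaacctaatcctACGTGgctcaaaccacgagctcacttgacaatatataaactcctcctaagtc
LHCB1.3: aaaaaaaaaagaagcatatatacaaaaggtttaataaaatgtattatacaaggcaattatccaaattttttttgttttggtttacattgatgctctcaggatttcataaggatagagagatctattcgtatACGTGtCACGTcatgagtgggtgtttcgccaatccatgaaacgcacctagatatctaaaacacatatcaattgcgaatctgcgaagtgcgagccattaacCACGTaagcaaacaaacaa

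With matches on each strand counted, SESA2 held 3 RY elements and 3 ABRE cores, CRC 1 and 3, and LHCB1.3 0 and 3. The stretch CACGTG in SESA2 reads as an ABRE core on both strands and was counted as 2 of its 3. Over the lists, the RY element was present in 11 of 13 storage windows (84.6%), 8 of 8 oil body windows (100.0%) and 7 of 29 LEA windows (24.1%), against 5 of 44 photosynthesis windows (11.4%) and 7.17% of 17559 windows of all genes tested. The ABRE core was present in 69.2% of storage, 62.5% of oil body, 79.3% of LEA, 64.3% of clock, 34.1% of photosynthesis, 31.2% of flavonoid and 30.0% of chlorophyll windows, against 23.5% of all. The G-box CACGTG, which contains the ABRE core, was present in 61.5% of storage, 55.2% of LEA, 35.7% of clock and 31.2% of flavonoid windows, in 2 of 8 oil body, 8 of 44 photosynthesis and 2 of 10 chlorophyll windows, against 7.8% of all. A match is a string of letters and not a shown site.

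Genes of photosynthesis rose in ago4-3 on salt. Of 44 measured nuclear genes, 40 were called higher and 0 lower, against 9.89% of all genes called higher, with a median of 1.22 and single genes at 0.18 to 2.42. For 43 of the 44 both ago4-3 libraries lay above both ago4-2 libraries, as they did for 31.5% of all genes tested. Without ago4-2 NaCl replicate 1 the count was 30, the lowest of any library left out. LHCB5, an antenna protein of photosystem II, had 28.3 and 30.9 CPM in ago4-3, against 4.59 and 6.37 CPM in ago4-2, and 37.5 and 46.3 CPM in Col-0 (2.42 ± 0.17, adjusted p = 2.48e-07). PSBO1, which stabilises the manganese cluster that splits water, had 27.8 and 29.0 CPM in ago4-3, against 7.88 and 8.07 CPM in ago4-2 (1.83 ± 0.15). LHCB1.3, the gene with its window above, had 151 and 155 CPM in ago4-3, against 50.5 and 63.9 CPM in ago4-2 (1.42 ± 0.11), and reads may be shared among the near-identical LHCB1 genes, as among the RBCS genes. Summed over the list, the level was 8276 and 7204 CPM in ago4-3, against 5307 and 5740 CPM in ago4-2, and 7519 and 8884 CPM in Col-0.

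Chlorophyll synthesis moved the same way, with 8 of 10 genes higher, 0 lower and a median of 0.70, against 9.89% of all genes called higher. CHLH, a subunit of the magnesium chelatase that commits porphyrin to chlorophyll, had 23.8 and 31.0 CPM in ago4-3, against 4.67 and 5.57 CPM in ago4-2 (2.41 ± 0.17, adjusted p = 2.27e-07). PORB, the light-dependent enzyme that reduces protochlorophyllide, had 75.8 and 84.8 CPM in ago4-3, against 37.1 and 39.2 CPM in ago4-2 (1.07 ± 0.13). Plastid-encoded transcripts ran the other way in level but did not pass the test. The 82 genes summed to 649 and 4392 CPM in ago4-3, against 10856 and 8711 CPM in ago4-2, and edgeR called 0 of them on salt. That sum varied widely between libraries of 1 group, with 16029 and 1153 CPM in ago4-2 control. Of 37 mitochondrion-encoded genes, 8 were called lower and 0 higher on salt, beside 11.0% and 9.89% of all genes. With the organelle genes left out of the fit, 40 photosynthesis genes were still higher and 0 lower.

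Fewer of these genes differed in control medium. There, 6 of the 44 photosynthesis genes were higher, against 3.79% of all genes called higher there, and 0 lower, with a median of 0.16, and with ago4-3 control replicate 2 left out 3 were higher. With ago4-2 control replicate 1 left out, 3 were higher and 1 lower. The summed levels in control overlapped between the lines at 5398 and 5843 CPM in ago4-3, against 5977 and 5363 CPM in ago4-2. The gap in NaCl minus the gap in control was positive for all 54 photosynthesis and chlorophyll genes and called for 16 of the 44 and 2 of the 10, against 0.648% of all genes called in that direction. The 16 were 11% of the 145 genes called by that test. Their number was 6 without ago4-2 NaCl replicate 1, and 8 without ago4-3 NaCl replicate 1. With a control library left out it was 8 (ago4-3 replicate 1) and 20 (ago4-2 replicate 1). The number for chlorophyll synthesis was 0 without ago4-2 NaCl replicate 1 and 4 without ago4-2 control replicate 1. It was 1 on leaving out ago4-3 NaCl replicate 1, ago4-2 NaCl replicate 2, ago4-3 control replicate 1 or ago4-2 control replicate 2. PSAD-1, a subunit of photosystem I that docks ferredoxin, had a gap of 2.02 ± 0.19 (adjusted p = 0.000163): 65.5 and 65.4 CPM in ago4-3, against 18.5 and 25.5 CPM in ago4-2 on NaCl, and 22 and 23.5 CPM in ago4-3, against 28.4 and 33.5 CPM in ago4-2 in control. LHCA4, an antenna protein of photosystem I, had a gap of 1.53 (adjusted p = 0.000724) and LHCB1.3 one of 1.21 (adjusted p = 0.00182). These 3 calls held with each library left out.

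**Figure D3:**
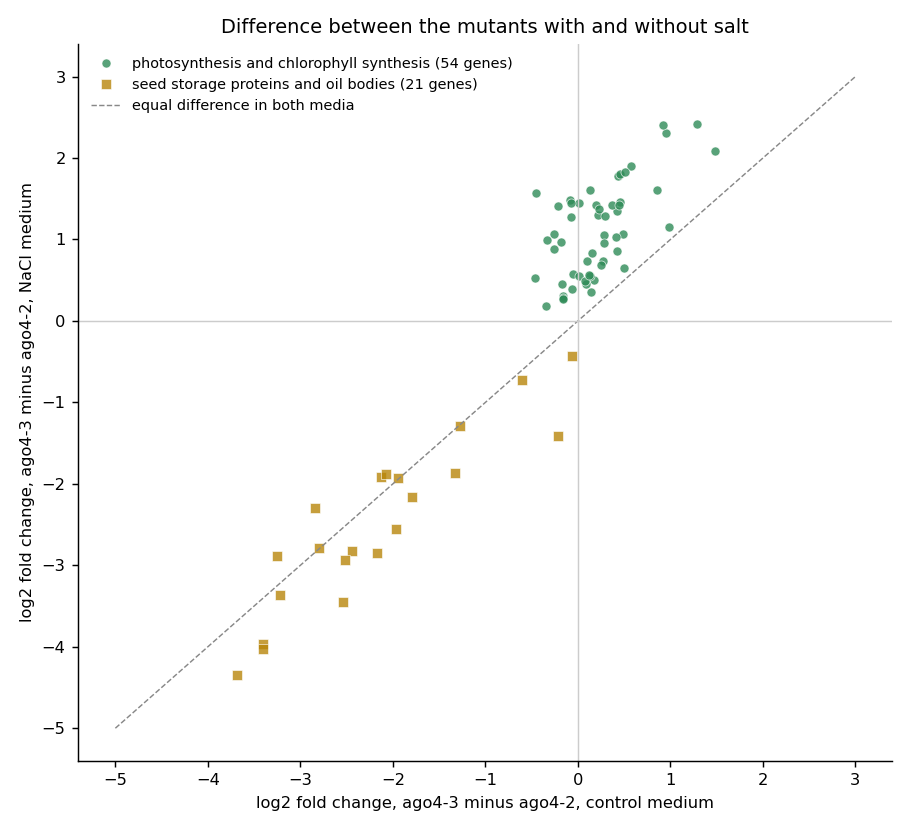
Log2 fold change of ago4-3 minus ago4-2 in control medium (horizontal) and in NaCl (vertical) for 54 genes of photosynthesis and chlorophyll synthesis and 21 genes of seed storage proteins and oil bodies, with a dashed line of equal difference. All 54 greening genes lie above the dashed line and above 0 on NaCl, and all 21 reserve genes lie below 0 in both media.

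Among the named genes that the test of the gap called, the largest difference between the media was in GI (AT1G22770; chromosome 1, 8061751 to 8067790), GIGANTEA, an evening-phased gene of the circadian clock and of flowering. On salt it had 27.7 and 31.2 CPM in ago4-3, against 1.73 and 1.60 CPM in ago4-2, and 23.0 and 24.4 CPM in Col-0 (4.15 ± 0.16, adjusted p = 2.11e-10). In control the difference was 0.96, with 10.5 and 10.2 CPM in ago4-3, against 5.68 and 5.02 CPM in ago4-2. The gap was 3.18 (adjusted p = 6.32e-06) and was called with each library left out. AT5G64170, annotated as a dentin sialophosphoprotein-like protein, followed with 13.7 and 17.6 CPM in ago4-3, against 1.56 and 2.14 CPM in ago4-2 on NaCl (gap 2.37, adjusted p = 0.000959). Of 14 clock genes, 4 were higher and 1 lower in ago4-3 on salt, where 9.89% of all genes were higher and 11.0% lower. The counts were 3 and 0 without ago4-3 NaCl replicate 2 or without ago4-2 NaCl replicate 2, and 6 and 0 with scaling by library totals. PRR7, a daytime repressor of the clock, had 14.2 and 14.8 CPM in ago4-3, against 3.46 and 5.14 CPM in ago4-2 (1.74 ± 0.26), and ELF4 of the evening complex rose by 0.85 ± 0.13. RVE4, a morning activator, was lower (−0.64 ± 0.14), a call lost without ago4-2 NaCl replicate 2 (adjusted p = 0.0686) and without ago4-3 NaCl replicate 2 (0.0764), and with scaling by library totals (0.059). The morning genes LHY (−0.50, adjusted p = 0.205) and CCA1 (1.64, adjusted p = 0.0651) did not pass. The hour of harvest is not given in the labels, so its part in the clock values cannot be told apart.

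Other genes differed between the mutants mainly in control medium, or in opposite directions in the 2 media. GASA6, a gibberellin-responsive gene of germination, had 3.30 and 3.57 CPM in ago4-3, against 3.16 and 3.70 CPM in ago4-2 on salt, where the libraries overlapped (0.00 ± 0.22), whereas in control it had 3.62 and 4.04 CPM in ago4-3, against 20.3 and 17.5 CPM in ago4-2. Its gap was 2.31 (adjusted p = 0.00188). EXPA8, an expansin that loosens cell walls, changed direction, with 16.4 and 17.3 CPM in ago4-3, against 8.01 and 8.74 CPM in ago4-2 on salt (1.01 ± 0.12), and 25.4 and 25.3 CPM in ago4-3, against 40.5 and 39.3 CPM in ago4-2 in control (−0.65, adjusted p = 0.00178). The gap of EXPA8 was 1.66 (adjusted p = 0.00035). Among genes with a negative gap, AT3G56880, which has a VQ motif, had 75.6 and 64.3 CPM in ago4-3, against 137 and 132 CPM in ago4-2 on salt, and 97.0 and 115 CPM in ago4-3, against 85.6 and 97.3 CPM in ago4-2 in control (gap −1.16, adjusted p = 0.00231).

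Hormone genes differed in both directions. Of 35 abscisic acid genes, 5 were higher and 9 lower in ago4-3 on salt, against 9.89% of all genes higher and 11.0% lower, with a median of −0.09. Scaling by library totals turned this to 7 higher and 4 lower (median 0.07), and the counts were 1 and 6 without ago4-2 NaCl replicate 1, 2 and 6 without ago4-2 NaCl replicate 2, 4 and 6 without ago4-3 NaCl replicate 1, and 1 and 6 without ago4-3 NaCl replicate 2. The genes called lower included protein phosphatases 2C, which hold abscisic acid signalling back. AHG1, a seed form, had 14.2 and 13.1 CPM in ago4-3, against 43.6 and 43.2 CPM in ago4-2 (−1.67 ± 0.14, adjusted p = 1.14e-06), HAI3 fell by 1.64 ± 0.18 and HAI2 fell by 1.73 ± 0.26. The receptor PYL2 rose, with 56.9 and 57.2 CPM in ago4-3, against 36.4 and 29.6 CPM in ago4-2 (0.79 ± 0.11). ABI5, the transcription factor that holds germination back, had 92.5 and 96.4 CPM in ago4-3, against 131 and 141 CPM in ago4-2 (−0.53 ± 0.10, adjusted p = 0.00213), a call that held with each library left out. ABI3, its partner in seed maturation, was called lower (−0.30, adjusted p = 0.0238), and the call was lost without ago4-3 NaCl replicate 1 (adjusted p = 0.0757), without ago4-3 NaCl replicate 2 (0.142), without ago4-2 NaCl replicate 1 (0.242) and with scaling by library totals (0.439). ABI4 (−0.07, adjusted p = 0.701) and the breakdown enzyme CYP707A2 (−0.12, adjusted p = 0.561) did not pass.

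Of 18 gibberellin genes, 2 were higher and 5 lower, beside 9.89% of all genes higher and 11.0% lower. The median was 0.01. The counts became 3 higher and 2 lower with scaling by library totals. Without ago4-2 NaCl replicate 1, without ago4-2 NaCl replicate 2 or without ago4-3 NaCl replicate 1 the counts were 1 higher and 2 lower, and without ago4-3 NaCl replicate 2 they were 2 and 2. GA3OX2, which makes active gibberellin, had 39.3 and 37.6 CPM in ago4-3, against 20.8 and 17.7 CPM in ago4-2 (1.00 ± 0.14, adjusted p = 0.00013). Its gap between the media was 1.18 (adjusted p = 0.00759), a call lost without ago4-2 NaCl replicate 2 (adjusted p = 0.0668). The DELLA repressor GAI had 62.4 and 61.3 CPM in ago4-3, against 99.0 and 88.3 CPM in ago4-2 (−0.60 ± 0.11). RGL2, the main DELLA repressor of germination, had 175 and 183 CPM in ago4-3, against 250 and 247 CPM in ago4-2 (−0.47 ± 0.13, adjusted p = 0.0184), a call lost with each library left out in turn (adjusted p of 0.11 without ago4-3 NaCl replicate 1, 0.0789 without ago4-3 NaCl replicate 2, 0.0922 without ago4-2 NaCl replicate 1 and 0.0803 without ago4-2 NaCl replicate 2). RGA (0.09, adjusted p = 0.577) did not pass.

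Of 9 measured genes of dormancy and germination control, 6 were lower and 0 higher in ago4-3 on salt, with a median of −0.77. Of all genes, 11.0% were lower and 9.89% higher. With scaling by library totals 4 of the list were lower. With genes of at least 1 CPM in all libraries 3 were lower, with a median of −0.35. SOM, a zinc finger protein that holds back germination in the dark, had 224 and 213 CPM in ago4-3, against 460 and 421 CPM in ago4-2, and 203 and 218 CPM in Col-0 (−1.01 ± 0.10, adjusted p = 7.09e-06). AT4G18690, annotated as a delay of germination protein, had 0.778 and 0.961 CPM in ago4-3, against 13.6 and 13.5 CPM in ago4-2, and 1.24 and 1.18 CPM in Col-0. AT4G18680, beside it on chromosome 4 and annotated likewise, had 0.0972 and 0 CPM in ago4-3, against 4.03 and 3.04 CPM in ago4-2, which was 86.2-fold higher (95% counting interval 23.5 to 717). RDO5, a phosphatase of seed dormancy, was lower by 0.77 ± 0.15. PIF1, a repressor of germination in the dark (−0.26, adjusted p = 0.117), and DAG1 (−0.18, adjusted p = 0.715) did not pass. The count was 4 lower without ago4-2 NaCl replicate 1, without ago4-2 NaCl replicate 2 and without ago4-3 NaCl replicate 2.

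Salt and osmotic stress genes did not share 1 direction. Of 16, 4 rose and 8 fell in ago4-3, beside 9.89% and 11.0% of all genes. TSPO, a membrane protein induced by abscisic acid and salt, had 65.4 and 57.3 CPM in ago4-3, against 262 and 264 CPM in ago4-2, and 40.7 and 52.0 CPM in Col-0 (−2.10 ± 0.12, adjusted p = 2.20e-08). RD29B, a classic desiccation-responsive gene, had 177 and 154 CPM in ago4-3, against 315 and 345 CPM in ago4-2 (−1.0 ± 0.12). Of 9 genes of sodium and proton transport, edgeR called 0, against 20.9% of all genes, with single genes at −0.54 to 0.24. For that list DESeq2 called 1 lower, and scaling by library totals gave 1 higher. Of 12 heat shock genes, 1 was higher and 3 lower, beside 9.89% and 11.0% of all genes. Among them, AT4G21870, annotated as an HSP20-like chaperone, had 14.4 and 14.9 CPM in ago4-3, against 3.59 and 3.74 CPM in ago4-2 (2.00 ± 0.15), while HSP17.4 had 1.60 and 1.54 CPM in ago4-3, against 6.32 and 8.31 CPM in ago4-2 (−2.22 ± 0.29).

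Flavonoid genes rose in ago4-3, with 12 of 16 higher, 0 lower and a median of 0.93 on salt, and 8 higher and 0 lower in control. Of all genes, 9.89% were called higher on salt and 3.79% in control. With genes of at least 1 CPM in all libraries, 6 flavonoid genes were higher and 0 lower on salt, with a median of 0.67. FLS1, flavonol synthase, had 46.1 and 56.4 CPM in ago4-3, against 19.3 and 23.6 CPM in ago4-2 (1.26 ± 0.14, adjusted p = 2.21e-05). LDOX, a late enzyme of anthocyanin and tannin synthesis, had 5.49 and 4.73 CPM in ago4-3, against 0.779 and 1.2 CPM in ago4-2, and 1.13 and 0.865 CPM in Col-0 (2.34 ± 0.29). Single defence genes differed by large amounts in both media. ICS1, which makes salicylic acid, had 26.5 and 26.0 CPM in ago4-3, against 3.33 and 2.87 CPM in ago4-2, and 6.27 and 4.96 CPM in Col-0 (3.08 ± 0.19, adjusted p = 3.98e-08), and 2.61 in control. ESM1, a modifier of glucosinolate breakdown, had 773 and 741 CPM in ago4-3, against 96.1 and 104 CPM in ago4-2, and 0.751 and 1.04 CPM in Col-0 (2.92 ± 0.15). For ESM1 both mutants lay far above Col-0. RPP5, a resistance gene close to RPP4 on chromosome 4, had 2.62 and 2.40 CPM in ago4-3, against 12.2 and 13.0 CPM in ago4-2 (−2.33 ± 0.20), and reads may be shared within that cluster of similar genes. FSD1, an iron superoxide dismutase, had 8.36 and 8.03 CPM in ago4-3, against 2.77 and 2.00 CPM in ago4-2, and 35.9 and 31.3 CPM in Col-0 (1.80 ± 0.18).

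Of 22 genes of the cell cycle and replication, 7 were higher and 1 lower in ago4-3 on salt, beside 9.89% and 11.0% of all genes, with a median of 0.33. The counts were 4 and 0 without ago4-2 NaCl replicate 1, 3 and 0 without ago4-2 NaCl replicate 2, and 3 and 0 without ago4-3 NaCl replicate 1. PCNA1, the clamp of DNA replication, had 57.1 and 57.5 CPM in ago4-3, against 40.3 and 36.0 CPM in ago4-2 (0.59 ± 0.10, adjusted p = 0.000958), and in control it differed by 0.56. Of 23 genes of cell wall loosening, 6 were higher and 3 lower, beside 9.89% and 11.0% of all genes. EXPA2, an expansin of the germinating endosperm, had 6.61 and 8.03 CPM in ago4-3, against 26.6 and 27.0 CPM in ago4-2, and 20.9 and 27.0 CPM in Col-0 (−1.86 ± 0.17, adjusted p = 2.67e-06). Of 5 root and root hair markers, edgeR and DESeq2 called 0, where edgeR called 20.9% of all genes. Of 8 markers of shoot epidermis and stomata 2 were lower, beside 11.0% of all genes, or 0 without ago4-3 NaCl replicate 1 or without ago4-2 NaCl replicate 1. Among the other lists, aquaporins had 5 of 18 genes higher and 3 lower, and proteases of storage proteins 1 of 5 higher and 2 lower. Beside these stand the same shares of all genes, 9.89% higher and 11.0% lower. The root list summed to 73.2 and 83.8 CPM in ago4-3, against 90.6 and 74.7 CPM in ago4-2, and the epidermis list to 389 and 462 CPM in ago4-3, against 469 and 459 CPM in ago4-2.

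**Figure D4:**
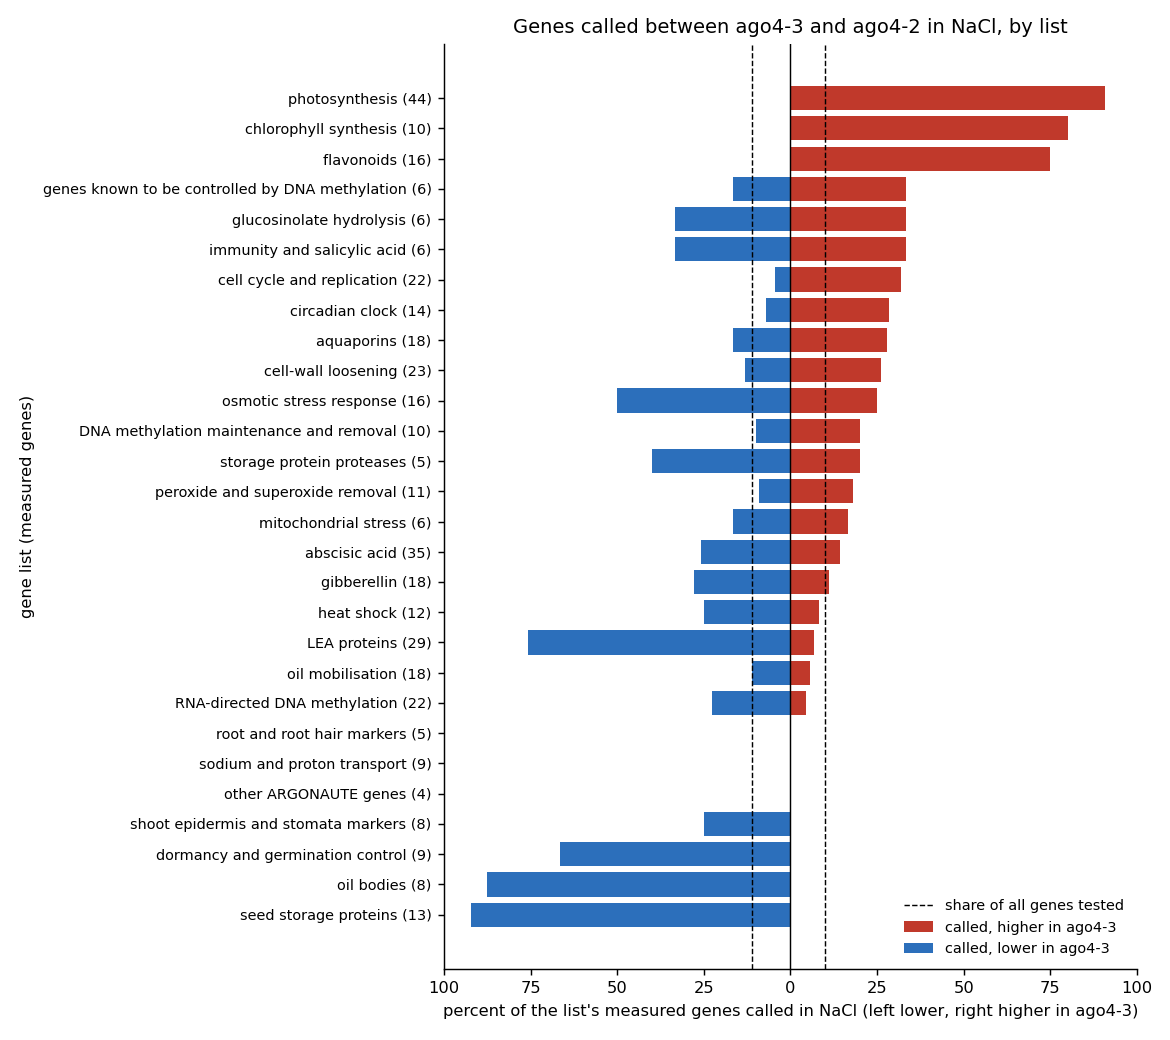
Percent of each list's measured genes (number in brackets) called on NaCl, higher in ago4-3 to the right and lower to the left, with dashed lines at the shares over all genes tested, 9.89% higher and 11.0% lower. Photosynthesis, chlorophyll synthesis and flavonoids reach furthest right, and seed storage proteins, oil bodies and LEA proteins furthest left. The endosperm and seed coat list, with 1 measured gene, which was lower, is not drawn.

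Set beside Col-0 on NaCl, more genes were called for ago4-2 than for ago4-3. Against the same 2 Col-0 libraries, 211 genes (1.19%) were called for ago4-3, 96 (0.541%) higher and 115 (0.648%) lower, and 5209 (29.3%) for ago4-2, 2649 (14.9%) higher and 2560 (14.4%) lower. These comparisons share their Col-0 libraries with each other and their mutant libraries with the one above, so their values are given side by side only. The ago4-3 count was 87 without ago4-3 NaCl replicate 1, 105 without ago4-3 NaCl replicate 2 and 104 without Col-0 NaCl replicate 1. The ago4-2 count was 3009 without ago4-2 NaCl replicate 1, 2804 without ago4-2 NaCl replicate 2 and 3439 without Col-0 NaCl replicate 1. With scaling by library totals, 61 genes were higher and 104 lower for ago4-3, where the median of all genes moved to −0.11, and 981 higher and 4957 lower for ago4-2, where it moved to −0.29. The storage protein list had a median of 0.65 for ago4-3 minus Col-0, with 2 of 13 genes called higher, and of 3.54 for ago4-2 minus Col-0, with 12 called higher. Oil body genes had medians of 0.64 for ago4-3 and 2.68 for ago4-2, with 2 and 8 of 8 called higher. The photosynthesis list had medians of −0.20 for ago4-3, with 0 higher and 1 lower, and −1.35 for ago4-2, with 0 higher and 40 of 44 lower. Flavonoid genes had medians of 0.12 for ago4-3, with 3 higher, and −0.54 for ago4-2, with 8 lower. The departures of ago4-3 from Col-0 included AGO4 (−6.09) and ROS1 (−3.42, adjusted p = 6.98e-07), whose values for ago4-2 were −0.21 (adjusted p = 0.229) and −0.62 (adjusted p = 0.0253), and also ICS1 (2.22 for ago4-3 and −0.86 for ago4-2), EXPA2 (−1.70 and 0.16) and ESM1 (9.72 and 6.80).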

How the data were processed

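The authors deposited whole-number read counts per gene for 12 RNA-seq libraries in 9 comparison tables of 17777 to 18171 rows, beside their own log2 fold changes and adjusted p-values, which were used only where named. The submitters' processing notes name SAMtools, Picard, DESeq, edgeR and the build TAIR10. The aligner, counter and strand setting are not given in the sources used here. Each library stands in several tables with equal counts. A second set of 36 library columns, whose values are not whole, was not used. Of 18689 identifiers, 147 with a transcript suffix also have a row for their gene and were dropped, and of 18542 genes the 17751 with a count listed for all 12 libraries were tested, which left out 791.

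Counts were fitted with edgeR 4.0.16 in R 4.3.3 (TMM scaling, quasi-likelihood F-test, 6 groups, all 12 libraries), with Benjamini-Hochberg correction of p-values over 17751 genes. The filter for low counts removed 0 further genes. SE was taken from the fold change and its F value. DESeq2 1.42.0 was an alternative. Scripts were tested on simulated data. Even numbers made up 72.35% to 87.65% of the counts between 1 and 20 in each library, so both mates of a pair may have been counted, and intervals (95%, exact) and floors (3 counts) cover counting error only and may be too narrow.

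Genes were named by rule: AGO4, the 12 largest changes in each direction at 5 CPM or more, every gene under 0.5 CPM in one line and at 5 CPM or more in the other, up to 4 called genes of each of 29 lists, the 6 largest gap differences in each direction, and regulators of hormone, dormancy and DNA methylation lists. The comparison, lists and rules were chosen with earlier results of these data known. AT3G06433 falls under the largest changes. Coordinates and sequences are from RefSeq TAIR10.1. Reads of overlapping or near-identical genes cannot be told apart.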

Additional observations from a re-analysis of the deposited data

Results flagged for a closer look

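For 36 named genes the difference of ago4-3 minus ago4-2 itself differed between the media, by the edgeR test of the gap in NaCl minus the gap in control, given here on the log2 scale. In photosystem II and its antenna these were PSBP-1 (1.15), PSBY (1.08), PSBR (0.99), PSBO1 (1.32), PSBQA (0.69), LHCB1.3 (1.21) and LHCB5 (1.13). In photosystem I, its antenna and electron transfer they were PSAO (1.62), PSAF (1.05), PSAG (1.35), PSAD-1 (2.02), PSAL (1.36), LHCA2 (1.48), LHCA4 (1.53) and the plastocyanin gene DRT112 (1.35). RBCS3B (0.77), a small subunit of Rubisco, and the chlorophyll genes CHLH (1.49) and CRD1 (0.64) had positive values too.

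Among growth and hormone genes the values were 1.33 for EXPA10, 1.11 for EXPA1, 1.66 for EXPA8, 2.31 for GASA6, 1.18 for GA3OX2 and 0.87 for PYL2. In light and clock genes they were 3.18 for GI, 1.14 for ELF4 and 1.80 for BBX18, a B-box protein. Positive values were also found for AT2G39420 (2.06), AT4G21870 (1.44) and AT5G64170 (2.37). Negative values were found for AT1G30860 (−2.20), AT3G56880 (−1.16), AT4G03200 (−1.11), AT4G36700 (−1.20), AT5G50170 (−1.15) and NDB2 (−0.99), an alternative NADH dehydrogenase of mitochondria. Of the 36, 14 stayed past the threshold with each of the 8 mutant libraries left out in turn. These were AT3G56880, AT4G21870, AT5G64170, DRT112, EXPA1, EXPA10, EXPA8, GASA6, GI, LHCA2, LHCA4, LHCB1.3, PSAD-1 and PSBP-1.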

How the results depend on the processing

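AGO4 kept its direction and call in every alternative run. The count of genes called on salt was 1867 to 2286 with a library left out, 3887 with DESeq2, 5045 in a fit of the 4 libraries and all rows of their own table, and 781 at 2-fold or more. In control medium it was 879 to 1661 with a library left out and 1045 with library totals. For the gap between the media it was 41 to 420 with a library left out, 82 from the 8 mutant libraries and 337 with DESeq2. Against Col-0 on NaCl it was 87 to 149 for ago4-3 and 2804 to 4223 for ago4-2 with a library left out, and for ago4-3 it was 348 with DESeq2 and 112 with genes of at least 1 CPM. Genes near silent in 1 line numbered 72 at 2 CPM and 19 at 10 CPM. No named gene called on salt changed direction. List medians near 0 did: with library totals the median was 0.07 in place of −0.09 for abscisic acid, 0.14 in place of −0.02 for oil mobilisation, 0.08 in place of −0.08 for sodium and proton transport, 0.06 in place of −0.10 for the other ARGONAUTE genes, 0.02 in place of −0.14 for storage protein proteases and 0.07 in place of −0.09 for epidermis markers. With a library left out, the medians of gibberellin, cell-wall loosening, methylation upkeep, oil mobilisation, sodium transport, peroxide removal and root markers also turned, and that of mitochondrial stress did in the fit of the 4 libraries and with genes of at least 1 CPM. Of 148 named genes, 38 lost their call on salt under some alternative and 111 kept it with every library left out. The cause was not tested. The main fit did not use replicate numbers as pairs. Same-numbered ago4-2 and ago4-3 libraries deviated with a correlation of −0.224 on NaCl and −0.267 in control (14059 genes). Between other groups the value reached 0.305 (Col-0 control with ago4-2 control) and −0.511 (Col-0 NaCl with ago4-2 control). With only 2 libraries in each group, these values cannot show whether same-numbered libraries shared a sowing or batch. With replicate number as a block, 3354 genes were called on salt, 1440 in control, 99 for the gap, 187 for ago4-3 against Col-0 and 4815 for ago4-2 against Col-0. With crossed numbers, chosen after seeing the data, the counts were 3517, 1456, 114, 180 and 4930. With 2 libraries in each group, the spread rests on few samples, and small differences in genes of few counts were not detectable at this depth.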
